A study of Drosophila melanogaster with 3 samples.

Results

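The 9 genes described here encode core components of the Dpp signalling pathway of *Drosophila melanogaster*: *dpp*, *tkv*, *put*, *Mad*, *Med*, *Dad*, *brk*, *shn* and *Snoo*. They were chosen by name for their place in the pathway, with earlier results of these data already known. A binding summit was assigned to a gene when in the gene body or up to 1000 bp upstream of the gene's 5′ end. Of the 8700 summits of the authors' reproducible peak set, 79 (0.908%) fell in 8 of the 9 genes. The data are chromatin immunoprecipitation with sequencing (ChIP-seq), which locates a protein on the genome. All samples came from 1 transgenic fly line that stably carries OdsH, a paired-class homeodomain protein, with GFP at its C terminus, and the chromatin, sonicated to fragments of 200 to 800 bp, was precipitated through the GFP tag. Whole animals of both sexes were pooled at the white prepupa stage, the start of metamorphosis, and the labels give 1 group of 3 biological replicates with no second genotype, stage or treatment. Per the deposited file lists, 1 control alignment served for calling the peaks of every replicate.

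Several features of the design bear on every value. Peaks from whole animals mix all tissues, so occupancy in few cells and weak occupancy in many cells cannot be told apart, and peak positions offer no marker by which the labelled tissue could be checked. The line expresses a tagged protein, and the promoter that drives it is not given in the sources used here. Reads were not used here, and the depth of each library is unknown. The authors' signal value, the strength their peak caller gave each peak, was compared only within 1 list, where rank 1 is the strongest peak. The reproducible set was selected by the irreproducible discovery rate (IDR), a procedure that keeps peaks whose ranks hold up between replicates.

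Dpp is the fly relative of vertebrate bone morphogenetic proteins and forms activity gradients that pattern the embryo and the wing imaginal disc. The ligand brings the type I receptor Tkv and the type II receptor Put together, Tkv phosphorylates the transcription factor Mad, and Mad enters the nucleus with its partner Med. There the complex activates targets such as *Dad*, which encodes an inhibitor of the pathway, and with the zinc finger protein Shn it silences *brk*, whose product represses Dpp targets where signalling is low. Snoo, a relative of the vertebrate proteins Ski and SnoN, binds Med and modulates its output.

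The bases under the strongest summits are printed to show the sequence found there. Whether they account for the signal was not tested. Each line gives the dm6 plus strand, from RefSeq, over the summit and 50 bp to either side: the strongest of each gene shown, and for *Dad* and *Snoo* also the others among the 1000 strongest of the whole set. Capitals mark any match to 1 of 9 words counted on both strands, which here is TAATTG, a homeodomain core that reads CAATTA on the other strand.
dpp, chr2L:2433600-2433700: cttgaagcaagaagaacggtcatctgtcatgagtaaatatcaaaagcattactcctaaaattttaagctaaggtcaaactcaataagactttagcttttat
tkv, chr2L:5254270-5254370: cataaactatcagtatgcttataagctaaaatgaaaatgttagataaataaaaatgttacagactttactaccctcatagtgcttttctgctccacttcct
put, chr3R:14624217-14624317: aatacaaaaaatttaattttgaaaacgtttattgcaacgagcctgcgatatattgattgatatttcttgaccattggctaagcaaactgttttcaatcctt
Mad, chr2L:3153080-3153180: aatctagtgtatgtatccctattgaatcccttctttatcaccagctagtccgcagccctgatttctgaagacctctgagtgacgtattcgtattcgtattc
Dad, chr3R:17059589-17059689: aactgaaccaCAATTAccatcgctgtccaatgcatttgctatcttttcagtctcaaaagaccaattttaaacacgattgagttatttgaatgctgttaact
Dad, chr3R:17065083-17065183: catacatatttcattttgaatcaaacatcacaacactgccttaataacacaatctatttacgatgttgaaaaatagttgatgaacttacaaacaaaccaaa
brk, chrX:7307082-7307182: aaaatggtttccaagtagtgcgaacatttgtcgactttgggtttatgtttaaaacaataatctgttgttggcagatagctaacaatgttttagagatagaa
Snoo, chr2L:7925533-7925633: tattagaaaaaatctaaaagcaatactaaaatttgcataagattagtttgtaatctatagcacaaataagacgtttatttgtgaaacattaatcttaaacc
Snoo, chr2L:7916451-7916551: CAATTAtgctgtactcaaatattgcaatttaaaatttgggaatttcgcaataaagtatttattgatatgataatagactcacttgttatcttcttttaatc
Snoo, chr2L:7900104-7900204: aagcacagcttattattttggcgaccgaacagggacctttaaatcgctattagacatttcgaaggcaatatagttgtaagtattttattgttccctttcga
Of these 10 windows, 8 hold none of the 9 words. Most are rich in runs of A and T, with a GC content of 22.8% to 36.6%, and the *Mad* window stands above the others at 42.6%. No window of *shn* is printed, and *Med* had no summit.

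The 9 genes with their upstream kilobase cover 288 kb, which is 0.215% of the 6 chromosome arms, and held 0.908% of the summits. Their density was 2.74 summits per 10 kb in the reproducible set, against 0.740 per 10 kb summed over all 13945 protein-coding genes, whose median density was 0. Counted in each replicate's own 8700 strongest peaks, the genes held 76, 77 and 66 summits in replicates 1, 2 and 3, a mean of 73.0 ± 6.08 (SD, n = 3), or 2.53 ± 0.211 per 10 kb (SD, n = 3). The 3 replicates thus stood close together, and their mean was above the density of coding genes as a whole in the reproducible set.

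A summit was present in 8 of the 9 genes, where 26.9% of all protein-coding genes had one, but long genes hold summits more often, so the members were read within classes of gene length. Under 5 kb, *brk* had a summit and *Med* had none, and 18.1% of coding genes of that class had one. From 5 to 20 kb, *put*, *Mad* and *Dad* all had summits, beside 46.1% of the class. From 20 to 50 kb, *dpp* had summits, beside 69.7% of the class. At 50 kb or more, *tkv*, *shn* and *Snoo* all had summits, beside 76.2% of the class. For the long genes presence is therefore close to the background, and the members were further above the background in how many summits they held, a difference that was not tested. The classes had median densities of 0, 0, 0.530 and 0.464 summits per 10 kb from short to long, and 90th percentiles of 3.43, 2.65, 2.11 and 1.68. *brk*, *Mad*, *Dad*, *tkv*, *shn* and *Snoo* lay above the 90th percentile of their class, while *put* and *dpp* lay below it.

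**Figure D1:**
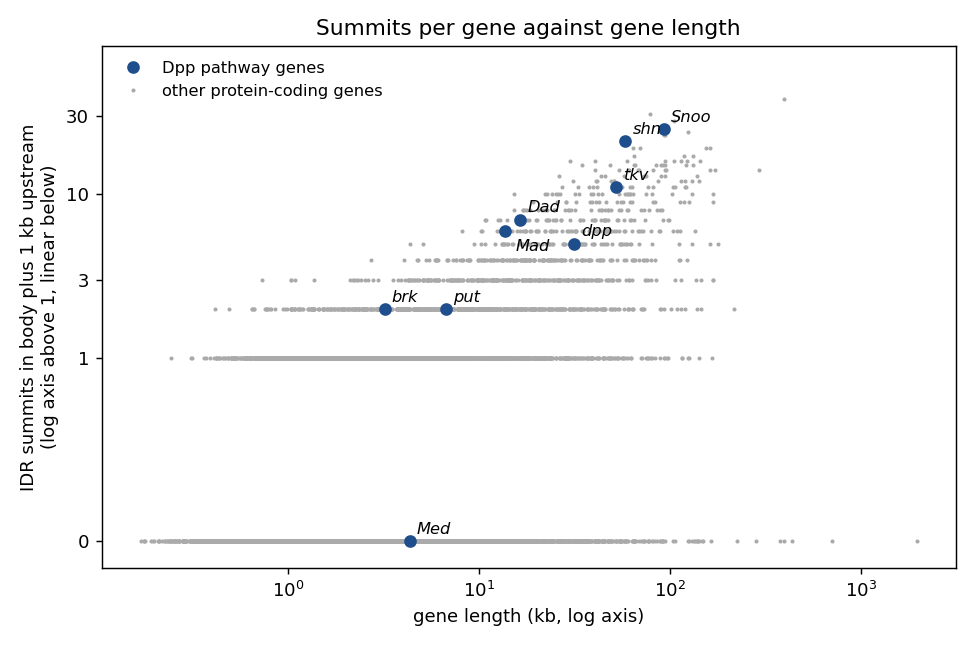
IDR summits per gene (vertical axis, log above 1) against gene length in kb (horizontal log axis) for the Dpp pathway genes (labelled points) and all other protein-coding genes (grey points). *shn* with 21 summits and *Snoo* with 25 lie near the upper edge of the cloud at their lengths, *dpp* with 5 lies within it, and *Med* lies at 0.

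Ordered by the mean density in the replicates' own lists, the genes ran from *brk* at 4.77 ± 0 summits per 10 kb, through *shn* at 3.77 ± 0.592, *Mad* at 3.43 ± 0.685 and *Dad* at 3.26 ± 0.332, to *Snoo* at 2.41 ± 0.307, *put* at 2.17 ± 0.752 and *tkv* at 1.94 ± 0.471, with *dpp* at 0.924 ± 0.308 and *Med* at 0.625 ± 1.08 at the low end (SD, n = 3 each). In this order *shn*, *Mad* and *Dad* did not differ from each other beyond the replicate spread, nor did *Snoo*, *put* and *tkv*, nor *dpp* and *Med*. The gaps between *brk* and *shn*, between *Dad* and *Snoo* and between *tkv* and *dpp* were free of overlap between replicates, although the lowest replicate of *Dad* (2.87) and the highest of *Snoo* (2.77) lay close together. The density of *brk* rests on 2 summits in 1 region, and that of *put* on 2 summits.

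**Figure D2:**
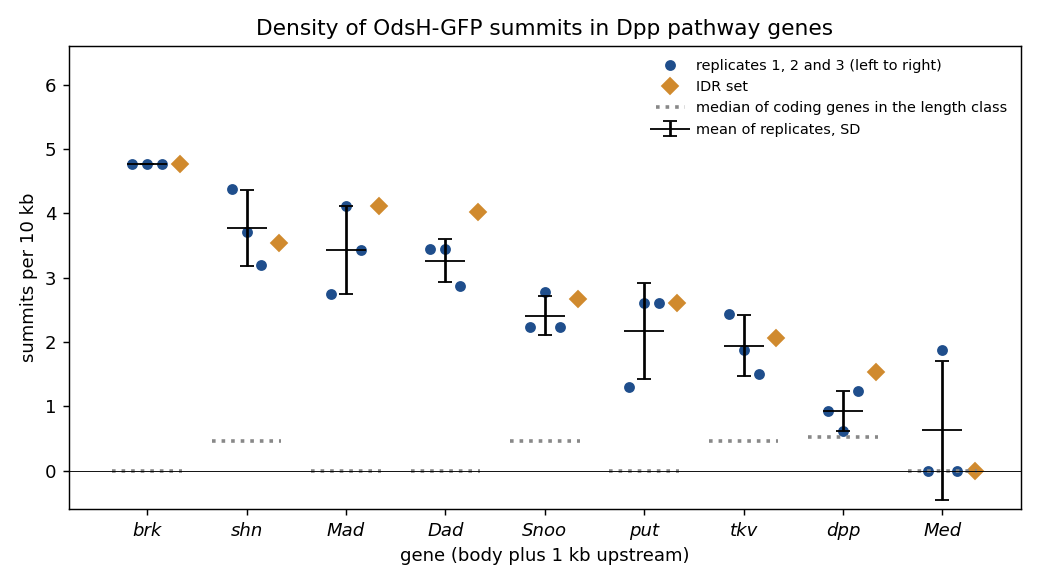
Summits per 10 kb of gene body plus 1 kb upstream in the 9 genes, with each replicate's own list as points, their mean and SD as bars, the IDR set as diamonds and the median of coding genes of the same length class as dotted lines. All 3 replicates lie above the dotted line in every gene but *Med*, where replicates 1 and 3 are at 0 and replicate 2 is at 1.88.

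In strength the pathway summits resembled the whole set. Their median signal value was 152 with a range of 78.4 to 1053, against a median of 153 and a range of 77.5 to 3230 over all 8700. Split into 5 rank classes of 1740 peaks from strong to weak, they numbered 17, 15, 14, 17 and 16. None was among the 100 strongest peaks, 5 were among the 500 strongest, 12 among the 1000 strongest and 19 among the 2000 strongest. The 5 in the first 500 belonged to *dpp* (1), *shn* (2) and *Snoo* (2).

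Support by the replicates was also like that of the whole set. Support by a replicate means that a peak overlapped at least 1 bp of one of that replicate's own 8700 strongest peaks; since the set was drawn from the same replicates, this describes the peaks and is no separate test. All 3 replicates supported 56 of the 79 peaks (70.9%), against 71.0% of all IDR peaks. A further 15 were supported by 2 replicates and 8 by 1, and none lacked support. Replicates 1, 2 and 3 supported 68 (86.1%), 73 (92.4%) and 65 (82.3%) of the 79, a mean of 86.9% ± 5.12 (SD, n = 3). All 12 summits among the 1000 strongest were supported by all 3 replicates, whereas 1 of the 16 in the weakest rank class was (6.25%), against 13.1% of all 1740 peaks in that class. The share with full support was not counted over all of the 1000 strongest peaks. The strongest summit without full support was in *shn*, with a signal value of 144 at rank 4642.

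**Figure D3:**
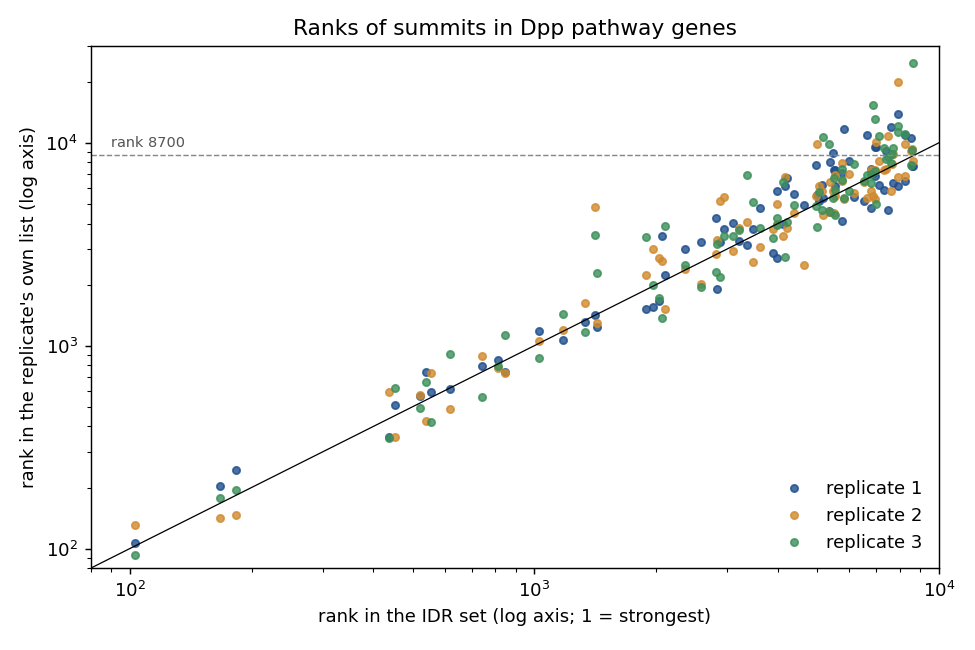
Rank of each pathway summit in a replicate's own list (vertical log axis) against its rank in the IDR set (horizontal log axis), with rank 1 strongest, the solid line marking equal ranks and the dashed line rank 8700. The strongest summits keep close to the line in all 3 replicates, and the points spread across the dashed line only toward the weak end.

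Spearman's rho of the signal values across the summits was 0.814 between replicates 1 and 2 (79 summits), 0.795 between 1 and 3 (77 summits) and 0.813 between 2 and 3 (77 summits). These are correlations across summits that share libraries and a control, and the IDR set was drawn from the same replicates. The values therefore describe the list and are no separate measure of reproducibility. The summit moved by a median of 23.0, 18.0 and 23.0 bp in replicates 1, 2 and 3.

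*dpp* (FBgn0000490, chr2L:2428372-2459823, plus strand, 31.5 kb, 4 annotated transcription start sites or TSSs) held 5 IDR summits, with 3, 2 and 4 in replicates 1, 2 and 3. It had the strongest summit of all 9 genes, at chr2L:2433650, the window printed first above. Its signal value was 1053, rank 103 of 8700, and the peak over it had signal values of 286, 430 and 357 in replicates 1, 2 and 3, at ranks 107, 131 and 93 of those lists. In all 3 replicates it was among the strongest peaks, and its summit moved by at most 13 bp. It lies in an intron, 5278 bp downstream of the first TSS.

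A second *dpp* summit, 637 bp before it at chr2L:2433013, had a signal value of 273 (rank 2035) and ranks of 1651, 2702 and 1720 in replicates 1, 2 and 3. The other 3 summits were weak, with signal values of 79.3, 89.0 and 97.9, and each was supported by 1 replicate. All 5 lie within a stretch of 8.84 kb at the 5′ end. The 3 downstream TSSs of *dpp* had no summit nearby, and their distances to the nearest were 13755, 14791 and 18299 bp.

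Because the disc enhancers of *dpp* are known to lie beyond its 3′ end, the flanks were counted too, a choice made after the values within the genes were seen. No IDR summit lay within 10 kb beyond the 3′ end, and 5 lay within 30 kb, the strongest 27211 bp beyond it with a signal value of 330 (rank 1472; ranks 1846, 1380 and 1834 in replicates 1, 2 and 3). That summit is 5637 bp from the TSS of *Slh*, so its nearest coding TSS is not that of *dpp*. Upstream, a summit 1731 bp before the first TSS, outside the 1000 bp limit, had a signal value of 419 (rank 1003; ranks 1375, 754 and 1435 in replicates 1, 2 and 3). It is stronger than 4 of the 5 summits that the limit admits.

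*tkv* (FBgn0003716, chr2L:5219000-5271384, minus strand, 52.4 kb, 4 TSSs), the type I receptor, held 11 IDR summits, with 13, 10 and 8 in replicates 1, 2 and 3. All 11 are intronic, they are spread over 35.6 kb, and 8 were supported by all 3 replicates. The strongest, at chr2L:5254320, had a signal value of 473 (rank 813). The replicates gave it signal values of 122, 208 and 152 at ranks 853, 780 and 794. It lies 17064 bp into the gene and 10181 bp upstream of the nearest *tkv* TSS.

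The other 10 *tkv* summits had signal values between 78.9 and 266. The summit closest to a *tkv* TSS lies 67 bp upstream of the third, at chr2L:5242687, and is among the weakest, with a signal value of 82.3 (rank 8241) and support from 1 replicate. For 3 of the *tkv* summits the nearest coding TSS was that of *Cyp4ac1*, and for 1 that of *TpnC25D*. No IDR summit lay in the 10 kb upstream or the 30 kb downstream of *tkv*.

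*put* (FBgn0003169, chr3R:14619030-14625703, minus strand, 6.67 kb, 1 TSS), the type II receptor, held 2 IDR summits, both intronic, with 1, 2 and 2 in replicates 1, 2 and 3. The stronger, at chr3R:14624267, lies 1436 bp downstream of the TSS and had a signal value of 463 (rank 845). The replicates gave it signal values of 133, 216 and 123 at ranks 738, 732 and 1126. The weaker, at chr3R:14622706, had a signal value of 92.8 (rank 7404) and was supported by 2 replicates. The strongest summits of the 2 receptors thus had similar signal values within the same list, while *tkv* held many more summits over a longer body.

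*Mad* (FBgn0011648, chr2L:3146056-3159643, minus strand, 13.6 kb, 2 TSSs), the transcription factor phosphorylated by Tkv, held 6 IDR summits, with 4, 6 and 5 in replicates 1, 2 and 3. All 6 are intronic and 4 were supported by all 3 replicates. Its strongest, at chr2L:3153130, lies 377 bp upstream of the second TSS and had a signal value of 286 (rank 1886). In replicates 1, 2 and 3 it had signal values of 88.7, 112 and 58.2 at ranks 1519, 2222 and 3432, the widest spread of ranks among the strongest summits of the 8 genes. A neighbour 285 bp away, at chr2L:3153415, had a signal value of 244 (rank 2360).

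The strongest summit of *Mad* was the weakest of these 8, and it was the only one within 500 bp of a TSS of its gene. The other 4 *Mad* summits had signal values between 82.2 and 124. The weakest of them had no overlapping row in replicate 3. No IDR summit lay within 10 kb upstream or 30 kb downstream of *Mad*.

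*Med* (FBgn0288966, chr3R:31611046-31615375, plus strand, 4.33 kb, 1 TSS), the partner Smad, held no IDR summit. The pooled list had a single row there, 139 bp upstream of the TSS, with a signal value of 19.2 at rank 28104 of 30000. Replicate 1 had 2 rows, at ranks 21217 and 26310, and replicate 3 had none. Replicate 2 had 2 rows, and the stronger, 934 bp upstream of the TSS with a signal value of 44.2, ranked 7275, inside its 8700 strongest. Only replicate 2 thus had a peak at *Med* among its 8700 strongest. The weaker row of replicate 2 lay 121 bp upstream of the TSS at rank 18731, and the stronger row of replicate 1 lay 415 bp upstream. Whether these weak rows overlap was not examined.

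A strong peak lies just beyond the 3′ end of *Med*. Its summit, at chr3R:31616174, is 799 bp past that end and had a signal value of 1507 (rank 46), with ranks of 55, 47 and 38 in replicates 1, 2 and 3. It is 14 bp upstream of the TSS of *Mnat9*, a neighbouring gene, and 5128 bp from the TSS of *Med*. This summit is stronger than any within the 9 genes, and the assignment rule keeps it outside *Med*.

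*Dad* (FBgn0020493, chr3R:17054007-17070408, plus strand, 16.4 kb, 2 TSSs), the inhibitory Smad and a direct target of the pathway, held 7 IDR summits in 6 separate regions, with 6, 6 and 5 in replicates 1, 2 and 3. The strongest, at chr3R:17065133, lies 11126 bp into the gene and had a signal value of 582 (rank 521). The replicates gave it signal values of 150, 240 and 190 at ranks 568, 571 and 492. The next, at chr3R:17059639, had a signal value of 495 (rank 742) and ranks of 797, 892 and 556 in replicates 1, 2 and 3. Both are intronic, 10236 and 4742 bp from the nearest TSS of *Dad*, and for the stronger the TSS of *Ns1* is nearer (7542 bp).

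A weaker summit 420 bp upstream of the first TSS had a signal value of 111 (rank 6171) and was supported by all 3 replicates. Just outside the limit, 1060 bp upstream, another had a signal value of 263 (rank 2139) and the same support. The strongest summit within 30 kb beyond the 3′ end of *Dad*, 10391 bp from it with a signal value of 884 (rank 200), lies inside the gene *kuk*.

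*Snoo* (FBgn0085450, chr2L:7891187-7984196, minus strand, 93.0 kb, 3 TSSs), the Ski and SnoN relative, held 25 IDR summits, with 21, 26 and 21 in replicates 1, 2 and 3. They are spread over 87.7 kb with a largest gap of 11121 bp, so they run along nearly the whole gene, and 24 are intronic. Among them 17 were supported by all 3 replicates, 7 by 2 and 1 by 1.

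The 3 strongest *Snoo* summits lie in the 3′ part of the gene. The summit at chr2L:7916501 had a signal value of 633 (rank 438), with 185, 236 and 219 in replicates 1, 2 and 3 at ranks 355, 594 and 352. The summit at chr2L:7925583 had 622 (rank 453; ranks 510, 356 and 622), and that at chr2L:7900154 had 573 (rank 541; ranks 742, 426 and 661). These 3 lie 67695, 58613 and 84042 bp into the gene, and all replicates placed them among their strongest 1000 peaks.

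For 13 of the *Snoo* summits the nearest coding TSS was that of *Spn28Db*, which lies beyond the 3′ end of *Snoo*. The summit 920 bp upstream of *Snoo*, with a signal value of 157 (rank 4214), is inside *CG7231* and 159 bp from its TSS. No summit lay within 500 bp of any of the 3 TSSs of *Snoo*.

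*brk* (FBgn0024250, chrX:7307939-7311132, plus strand, 3.19 kb, 1 TSS), the repressor of Dpp targets, held no summit in its body and 2 in the 1000 bp upstream, with 2, 2 and 2 in replicates 1, 2 and 3. The stronger, at chrX:7307132, lies 807 bp upstream of the TSS and had a signal value of 566 (rank 554). The replicates gave it signal values of 147, 215 and 204 at ranks 590, 736 and 421. The other, at chrX:7307335, had a signal value of 340 (rank 1411) and ranks of 1415, 4823 and 3529. Both share 1 peak region and were supported by all 3 replicates, and both lie within the larger gene *CG1677*, which also spans *brk*, and within the non-coding gene *lncRNA:CR44357*.

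The DNA upstream of *brk* held more summits than the 1000 bp limit admits. Over 10 kb there were 7, all supported by all 3 replicates, the strongest 5425 bp upstream with a signal value of 626 (rank 444; ranks 547, 451 and 396 in replicates 1, 2 and 3). Within 30 kb downstream there were 10 more, the strongest, 13905 bp beyond the 3′ end with a signal value of 841 (rank 235), in *Dok*. The upstream series and the downstream series both lie within *CG1677*, so overlap with a gene body does not tell which gene they belong to.

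*shn* (FBgn0003396, chr2R:11159086-11217394, plus strand, 58.3 kb, 5 TSSs), the zinc finger cofactor of Mad and Med, held 21 IDR summits in 18 separate regions, with 26, 22 and 19 in replicates 1, 2 and 3. Among coding genes of 50 kb or more, 99.3% had a lower density, the highest such share among the 9 genes, and 16 of its summits were supported by all 3 replicates. They lie within 31.9 kb in the middle of the gene, the first of them 14542 bp from its 5′ end, so no summit lay near the first TSS. Of the 5 TSSs, 3 had a summit within 500 bp.

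The 2 strongest *shn* summits came next to that of *dpp* in signal value. The summit at chr2R:11184565 had a signal value of 936 (rank 167), with 234, 421 and 284 in replicates 1, 2 and 3 at ranks 204, 141 and 177. The summit at chr2R:11188792 had a signal value of 907 (rank 183), with 215, 417 and 278 at ranks 244, 147 and 194. They lie in introns, 1341 and 5568 bp downstream of the third TSS. A summit 1 bp from the third TSS, the single one in a 5′ UTR, was weaker, with a signal value of 211 (rank 2875) and ranks of 3250, 5160 and 2186. The other 18 *shn* summits had signal values between 91.5 and 538. Together *shn* and *Snoo* held 46 of the 79 summits (58.2%). They are also the longest genes of the group, at 58.3 and 93.0 kb. Per 10 kb of the IDR set, *shn* held 3.54 summits and *Snoo* 2.66, against 2.74 over the group. The share of summits alone thus shows no concentration: *shn* was denser than the group and *Snoo* was not.

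**Figure D4:**
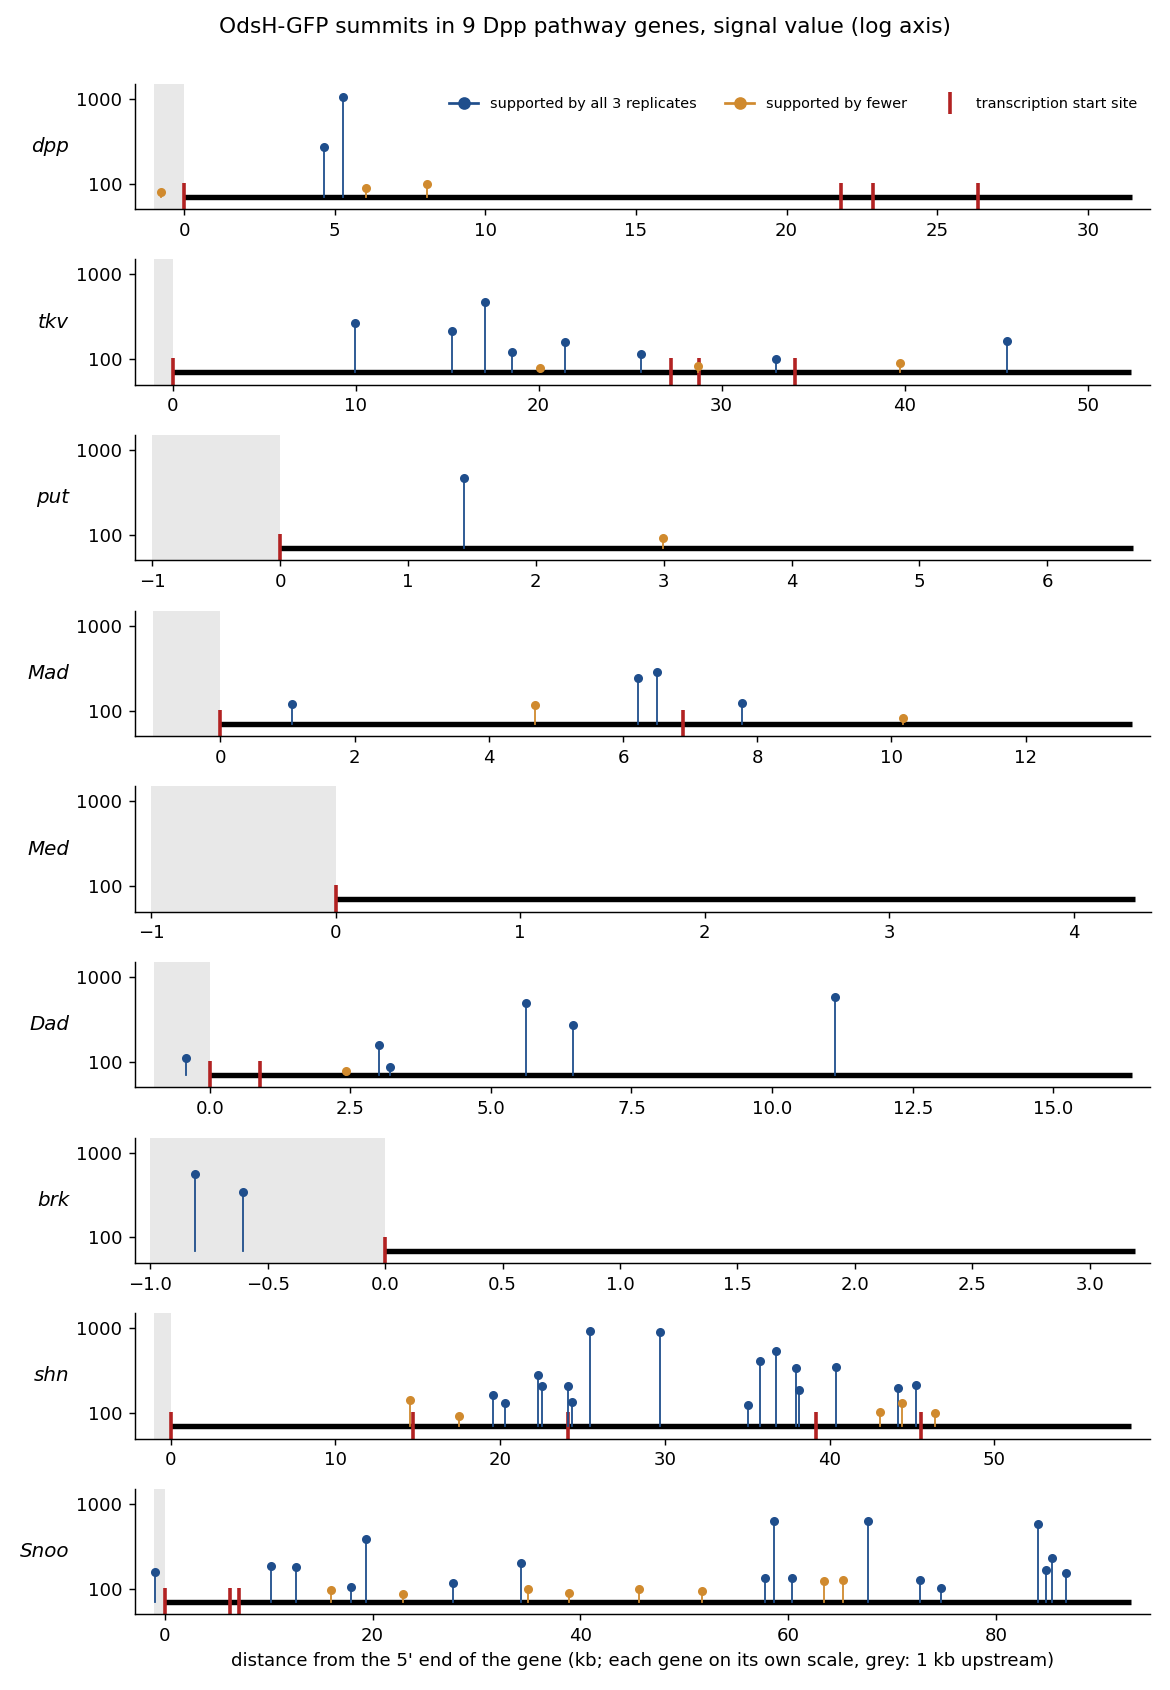
Position of every IDR summit along the 9 genes, as distance in kb from the 5′ end of each gene (each gene on its own scale, grey marking 1 kb upstream), with the signal value as height on a log axis, red bars for TSSs and colour for support by all 3 replicates or fewer. Summits crowd near the 5′ end in *dpp*, cover the middle of *shn* and run along nearly all of *Snoo*, and the tallest stand away from the red bars in every gene with summits but *Mad*.

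Most summits were in introns, which make up most of these genes. Of the 79, 73 (92.4%) were in introns, 5 (6.33%) upstream and 1 (1.27%) in a 5′ UTR, and none was in coding sequence or a 3′ UTR. *brk*, which has no intron, held only upstream summits. Of the 74 summits in the gene bodies alone, 73 were in introns. Introns make up 83.2% of the 9 gene bodies, and coding sequence 8.79% (24.6 kb). Places within genes were not counted for all 8700 summits, so this split cannot be called particular to the 9 genes. Within 500 bp of any coding TSS there were 8 summits (10.1%), against 27.2% of all IDR summits. The median distance to the nearest coding TSS was 4147 bp for the pathway summits and 2114 bp for all. The pathway summits were thus farther from promoters than the set as a whole, in genes that are mostly long and mostly intron.

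Only 7 summits (8.86%) lay within 500 bp of a TSS of their own gene, and these were in *shn* (4), *tkv*, *Mad* and *Dad* (1 each). Of the 23 annotated TSSs of the 9 genes, 6 had a summit within that distance. The strongest summit was more than 500 bp from its own gene's TSS in 7 of the 8 genes with summits. These counts were not made for all coding genes. Whether they are high or low for coding genes is therefore unknown. The exact distance mattered for the share: 3.80% of summits lay within 200 bp and 17.7% within 1000 bp.

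The bases at the summits were poor in G and C. The median GC content of the windows, 50 bp to either side of the summit, was 30.7%, with a range of 17.8% to 54.5%, and the median over all 8700 windows was also 30.7%. In windows 500 bp to either side the medians were 45.0% for the pathway summits and 43.6% for all. The GC content was lower at the summit than in its flanks for 70 of the 79 (88.6%), against 85.3% of all IDR summits. By gene the median ran from 26.7% in *brk* to 34.7% in *Dad*. The dip at the summit was therefore present in these genes as in the whole set.

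**Figure D5:**
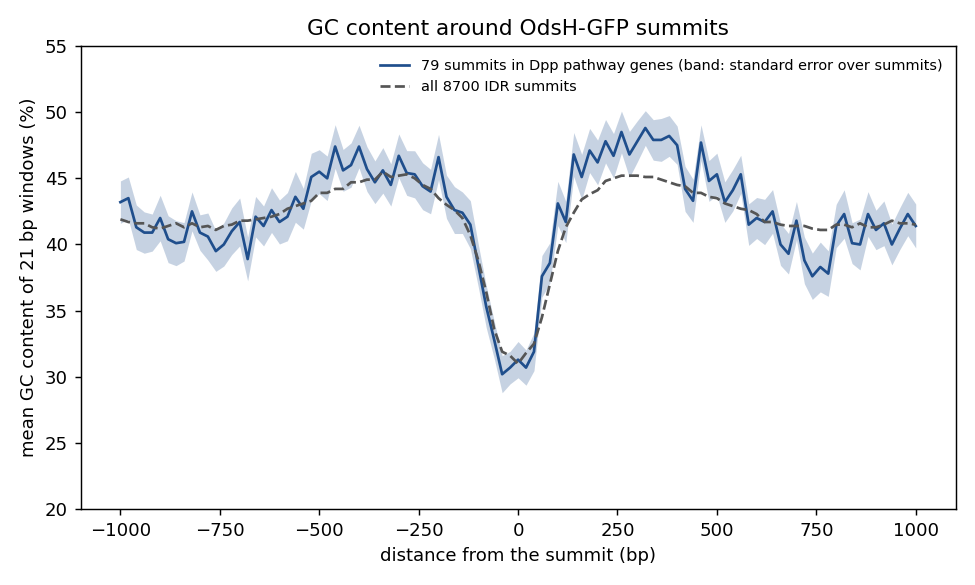
Mean GC content in percent (vertical axis) of 21 bp windows against distance from the summit in bp, for the 79 pathway summits (solid line, band of 1 standard error over summits, which share genes and are not independent) and all 8700 IDR summits (dashed line). Both lines fall to about the same low at the summit, with 31.3% ± 1.37 for the pathway summits and 31.0% for all at distance 0.

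Known binding words were counted in the same windows, with shares of all IDR windows and of 1323188 windows of the same length laid end to end over the 6 arms beside them. A match is only a run of letters, both strands were searched, and words may overlap. The homeodomain core TAATTA was in 4 of the 79 windows (5.06%), against 10.8% of all IDR windows and 6.47% of arm windows. TAATTG was in 9 (11.4%), against 11.5% and 9.27%, and these 9 were spread over 7 genes. The paired-class dimer, a pair of homeodomain half-sites facing each other, was in 1 window (1.27%), the weaker summit of *put*, against 1.75% and 0.776%. With 4, 9 and 1 windows, single matches move these shares, and none was compared by a test.

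Words of the pathway's own factors were also sparse, each in 3 windows or fewer. The Mad site GCCGNC was in 1 window (1.27%), in *Dad*, against 3.22% of IDR windows and 11.3% of arm windows. The Brinker core TGGCGC or TGGCGT was in 3 (3.80%), in *Dad*, *shn* and *Snoo*, against 4.22% and 7.18%. The Smad palindrome GTCTAGAC and the silencer element bound by Mad, Med and Shn were in none of the 79, against 0.0460% and 0% of IDR windows and 0.0504% and 0.0240% of arm windows. TATCGATA, bound by the promoter factor DREF, was in 1 (1.27%), in *tkv*, against 0.701% and 0.275%, and CAGGTA, bound by Zelda, was in none, against 1.77% and 2.30%. GCCGNC and the Brinker core are rich in G and C where the windows are poor in them, and the part of base composition in the shares was not tested. In all, 62 of the 79 windows held none of the 9 words.

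The windows below show the matches to the paired-class dimer, GCCGNC and TATCGATA, 1 window each, and the matches to TAATTA outside *shn*, with each matched run in capitals and all matches of a window marked, so runs that overlap join.
tkv, chr2L:5256085-5256185: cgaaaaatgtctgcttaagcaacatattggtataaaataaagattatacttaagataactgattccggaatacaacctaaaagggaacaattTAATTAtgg
tkv, chr2L:5242637-5242737: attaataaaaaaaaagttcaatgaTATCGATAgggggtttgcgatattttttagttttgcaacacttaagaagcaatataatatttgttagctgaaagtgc
put, chr3R:14622656-14622756: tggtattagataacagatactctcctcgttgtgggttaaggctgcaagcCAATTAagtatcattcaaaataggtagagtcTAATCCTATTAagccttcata
Dad, chr3R:17056377-17056477: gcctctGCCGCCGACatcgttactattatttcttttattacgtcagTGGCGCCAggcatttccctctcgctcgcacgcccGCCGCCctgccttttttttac
Snoo, chr2L:7945204-7945304: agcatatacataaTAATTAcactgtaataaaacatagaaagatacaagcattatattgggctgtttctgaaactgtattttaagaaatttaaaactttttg
Snoo, chr2L:7897403-7897503: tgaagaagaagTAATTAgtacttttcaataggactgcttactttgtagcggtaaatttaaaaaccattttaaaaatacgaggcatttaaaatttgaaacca
The *put* window carries both TAATTG, read on the other strand, and the paired-class dimer, and its peak was weak (rank 7404). The *Dad* window, 1530 bp downstream of the nearest *Dad* TSS, carries the GCCGNC and TGGCGC matches, has the highest GC content of the 79 (54.5%) and ranked 8614, near the end of the set. The *tkv* window with TATCGATA is the summit 67 bp from a TSS. The 6 windows lie under peaks ranked between 2812 and 8614, and the window of the strongest peak of the group, in *dpp*, held no word.

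A list of 42 further genes, drawn up for Dpp, BMP and activin signalling, gave a setting for the 9. Of these, 16 (38.1%) had a summit in the body or 1000 bp upstream, 79 summits in all, where 26.9% of all coding genes had one. Within length classes that excess was not seen: 15 of the 28 genes of 5 kb or more had a summit (53.6%), against 53.6% of coding genes of that length, and 1 of the 14 shorter ones (7.14%), against 18.1%. By role, 1 of 6 ligands, 2 of 3 receptors, 2 of 4 Smads or nuclear cofactors, 6 of 11 extracellular regulators, 0 of 3 intracellular regulators and 5 of 15 targets had a summit. The roles differ in gene length and were not set beside coding genes of like length, so these counts do not rank the roles. The intracellular regulators counted were *Smurf*, *Sara* and *lark*. *lark* is among the 14 shorter genes and held no summit, and its place in the pathway is uncertain.

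The strongest summit among these 42 genes was in *ush*, a Dpp target that encodes a zinc finger partner of GATA factors. It had a signal value of 3225 (rank 2; ranks 2, 1 and 2 in replicates 1, 2 and 3), and *ush* held 19 summits. *wit*, the type II receptor of neuromuscular BMP signalling, had a summit of signal value 1091 (rank 97; ranks 85, 92 and 79), 1129 bp from a TSS, which is a little above the strongest of the 9 core genes. Next came the extracellular regulators *magu* (681, rank 369) and *dlp* (495, rank 747), a secreted modulator and a glypican that binds ligands.

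Lower in the order were *nej* (385, rank 1160), the fly CBP coactivator, *sog* (357, rank 1309), a secreted antagonist of Dpp, *bi* (292, rank 1835), a wing target, and *CtBP* (278, rank 1972), a corepressor. In all 8 of these genes the strongest summit was supported by all 3 replicates. Other genes of the list had none: the ligands *gbb* and *scw*, the receptor *sax*, *Smox* and the wing targets *salm*, *salr* and *vg* held no IDR summit. Of these, *gbb*, *scw* and *sax* are under 5 kb, where 18.1% of coding genes had one. In the replicates' own lists *gbb* had 1 summit in replicate 1, and *salm* and *salr* had 1 each in replicate 2. Extracellular regulators held 39 of the 79 summits of the list over 229.0 kb with their upstream kilobases, or 1.70 per 10 kb. Receptors were denser at 2.03 per 10 kb, though on 5 summits over 24.6 kb, of which *wit* held 4. Ligands held 3 summits over 32.0 kb, all in 1 gene, or 0.94 per 10 kb. Targets stood at 0.94 per 10 kb, Smads or nuclear cofactors at 0.81 and intracellular regulators at 0. Of the 27 target summits, 19 were in *ush*. Over all protein-coding genes the summed density was 0.740 per 10 kb. The roles hold few genes, and differences between them were not tested.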

How the data were processed

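The authors deposited peak lists on builds dm6 and dm3: 30000 rows for each of the 3 replicates and for their pool, and 1 IDR set of 8700 rows. The deposited signal value of each row was used to rank peaks within 1 list, and the deposited summit offset was added to the peak start to place summits. Which aligner and caller made them is not given in the sources used here, and lists on dm3 were left out. Depth is unknown, so no interval that needs it is given. All coordinates are 1-based on dm6. Genes and TSSs came from Ensembl release 115 and sequence from RefSeq, both of the BDGP6 assembly. Replicate values are those of the overlapping row with the nearest summit, whereas support asks for any overlap of 1 bp. Counts were made with Python 3.11.15, pandas 2.3.3 and numpy 2.4.6, rho with scipy 1.17.1 and figures with matplotlib 3.10.9, and the assignment of summits was tested on simulated data. With 1 group there is no comparison between groups and no test, and the spread is the SD over 3 replicates of 1 line. Members, gene lists, words and alternatives were chosen with earlier results of these data known. Genes named are the 9 members, the 8 other pathway genes with the strongest summits, and genes whose TSS is nearer to a member's summit than the member's own. *Mnat9*, *Slh*, *kuk*, *Dok*, *CG1677*, the genes named as having no summit, the flanks and the windows shown for words or as further strong summits were chosen after their values were seen.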

Additional observations from a re-analysis of the deposited data

How the results depend on the processing

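The presence of summits held under every alternative tried: 7 genes kept one with the gene body alone, where *brk* lost both of its summits, and 8 under the others that use the IDR set. With the 4350 strongest peaks alone, the count was 39, the density 1.35 per 10 kb, the median signal value 273 and the share with full support 100%, which follows from keeping fewer and stronger peaks. With only the peaks supported by all 3 replicates, the density was 1.94 per 10 kb, the median signal value 204 and the median GC 30.2%. Full support was 54.4% (43) at 50% reciprocal overlap, 96.2% (76) with 17400 rows per replicate and 97.5% (77) with all 30000. The share near an own TSS was 3.80% within 200 bp and 17.7% within 1000 bp. Median GC was 29.7% with the gene body alone, 31.4% with 25 bp to each side and 32.3% with 100 bp. Leaving out each replicate in turn and keeping peaks that both others supported gave full support of 72.2% to 81.0%, a median signal value of 180 to 200, a density of 1.98 to 2.22 per 10 kb and a median GC of 30.2% to 30.7%. Chosen after seeing the data, merging overlapping peaks gave 74 regions, asking that the nearest replicate summit rank within 8700 gave 68.4% support, and leaving out *Snoo* gave 54 summits, 2.78 per 10 kb and a median signal value of 162. No value reversed. The other genes of the pathway with a summit numbered 12 to 22. Where a value moved beyond the replicate spread and the alternative's own construction does not show why, the cause was not tested. No paired analysis was possible because there is 1 group. Depth was not analysed, so weak summits missing from a replicate cannot be read as absent.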
